A study of Homo sapiens with 10 samples.

Results

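The regions described here had a called ATAC-seq peak in one of 2 CCRF-CEM lines under every condition tested and in the other line under none. Peaks of 10 ATAC-seq lists on human build hg19, on chromosomes 1 to 22 and X, were merged into regions by an overlap of 1 bp or more, which gave 35505 regions. Of these, 128 held a peak in all 5 SLFN11-knockout lists and in no parental list, and 2 held a peak in all 5 parental lists and in no knockout list. The regions were selected on the peak calls themselves, so their number, strength and width are given as a description with no test.

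CCRF-CEM is an established human T-cell leukemia line. One line carries a knockout of SLFN11, and the other is its SLFN11-positive, wild-type parent. Each line was sampled once under each of 5 conditions, namely the vehicle DMSO, prexasertib at 100 nM over 2, 4 and 6 h, and camptothecin at 100 nM over 4 h. The sources used here do not say whether the knockout line is a single clone, and the 5 libraries of a line are not replicates of each other. For parental cells at 4 h in prexasertib, the submitters state that the raw file is truncated.

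SLFN11 is a nuclear protein that is recruited to stressed replication forks and blocks them, and its loss makes leukemia cells tolerant of DNA-damaging drugs. CHK1, a checkpoint kinase, is the target of prexasertib, and topoisomerase I is held on DNA by camptothecin. ATAC-seq reads accessible chromatin through the insertion of sequencing adapters by a transposase. When a knockout line is grown out from few cells, it can differ from its parent at sites unrelated to the targeted gene, through stably inherited chromatin states or through gained and lost stretches of chromosome. A copy number change would alter many neighbouring peaks together, while a site-specific difference would touch one peak. Positions are given without genes, since no annotation of build hg19 was used here.

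The knockout lists held between 18591 and 23773 regions and the parental lists between 15447 and 22834. Depth was read from the genome-wide background pileup of each library. This was the smallest local background recovered from the peak caller's values, and was not coverage measured away from peaks. Across the 5 conditions, from DMSO over the prexasertib times to camptothecin, it was 1.59, 2.1, 1.85, 1.99 and 1.74 in knockout cells and 1.63, 1.48, 1.33, 1.52 and 1.45 in parental cells. The knockout library was thus the deeper one in every treated condition, and the parental library was slightly deeper with DMSO. With summit pileups randomly thinned to a common background and 1 p-value limit for all lists, the strictest of the 10 at a −log10 p of 4.55, the knockout-only number had a median of 58 over 20 draws and the parental-only number a median of 4. With the same limit and no thinning they were 127 and 2, against 128 and 2 as deposited.

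At any single condition, differences between the lines were common. Regions called in the knockout library and not in the parental library made up 16.1% of all regions under DMSO, 25.9%, 15.2% and 13.5% at 2, 4 and 6 h in prexasertib, and 7.20% in camptothecin. The reverse made up 4.13%, 2.43%, 5.03%, 13.2% and 15.2%. Differences that held in all 5 conditions were far rarer. The 128 knockout-only regions are 0.361% of all regions, and the 2 parental-only regions are 0.00563%. The rule itself fixed these shares. Among the 14971 regions called in all 5 knockout lists, 0.855% (exact 95% interval 0.714% to 1.02%) were absent from every parental list. Among the 11988 regions called in all 5 parental lists, 0.0167% (0.00202% to 0.0603%) were absent from every knockout list. These and the following intervals cover counting error over regions only.

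**Figure D1:**
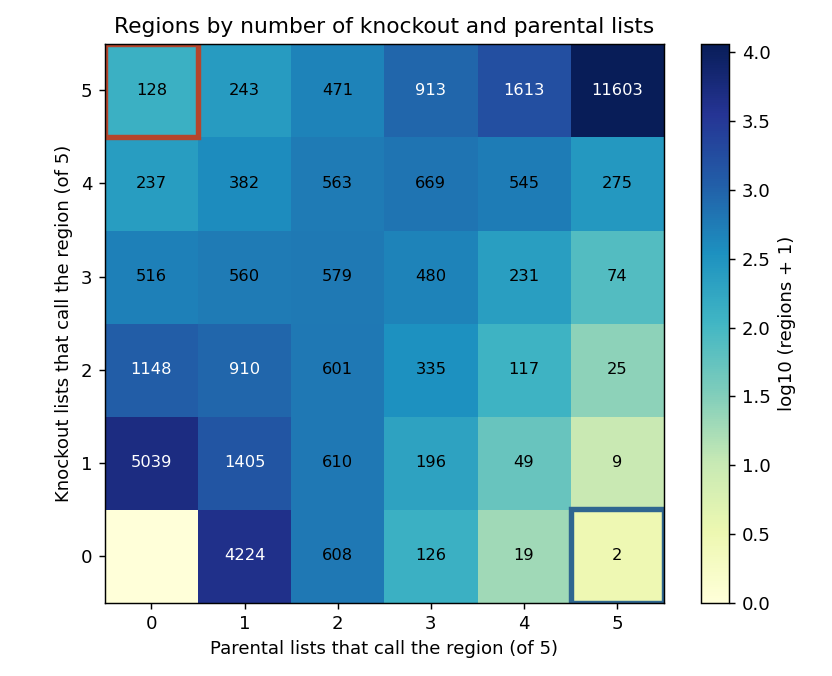
Each cell gives the number of regions called in a given number of knockout lists (vertical axis, 0 to 5) and parental lists (horizontal axis, 0 to 5), with colour on a log10 scale. The outlined cells are the 128 knockout-only and the 2 parental-only regions, which lie in corners opposite each other. The 11603 regions called in all 10 lists fill the corner between them.

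The edges of the rule were more heavily filled than its corner. Called in all 5 knockout lists and in 1 parental list were 243 regions, and 237 were called in 4 knockout lists and no parental list. In the grid of list numbers the counts with 5 knockout lists grew with the number of parental lists, through 471, 913 and 1613 for 2, 3 and 4 parental lists. Of the 243 regions, 111 had their parental peak only after 6 h of prexasertib and 58 only after camptothecin, the longest parental lists. With the lines exchanged, 9 regions were called in all 5 parental lists and 1 knockout list, and 19 in 4 parental lists and no knockout list.

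The knockout-only regions were weak. Strength is given as summit height, the pileup at the summit divided by the genome-wide background of the library, and as the −log10 q-value of the peak caller. Their median height was 9.41 with DMSO, against 25.1 for the regions called in all 10 lists in the same library. At 2, 4 and 6 h in prexasertib it was 9.52, 8.64 and 9.03, where the regions called in all 10 lists had 27.1, 27.0 and 26.1. After camptothecin it was 8.62, against 21.8. The knockout-only regions therefore had a median between 0.320 and 0.395 times that of common regions in every knockout library.

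The median −log10 q of the knockout-only regions was 4.92 under DMSO, 6.73, 5.21 and 5.52 at 2, 4 and 6 h in prexasertib, and 4.68 in camptothecin. The lowest −log10 q in each deposited list was just above 2. In the weakest of its 5 lists, the median knockout-only region had a −log10 q of 3.09, and 60 of the 128 were below 3. Only 19 reached 5 in all 5 lists, and 2 reached 10. Among all 14971 regions called in the 5 knockout lists the median of the weakest list was 12.0. Of these, 948 were below 3 in their weakest list, 12146 reached 5 in all 5 lists and 8562 reached 10. Regions just outside the rule were weak as well. The mean −log10 q over the knockout lists with a call had a median of 5.62 in the knockout-only regions. With 5 knockout lists and 1 parental list it was 5.41 to 6.99, grouped by that parental list. With 4 knockout lists and no parental list it was 3.89 to 5.37, grouped by the missing list.

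**Figure D2:**
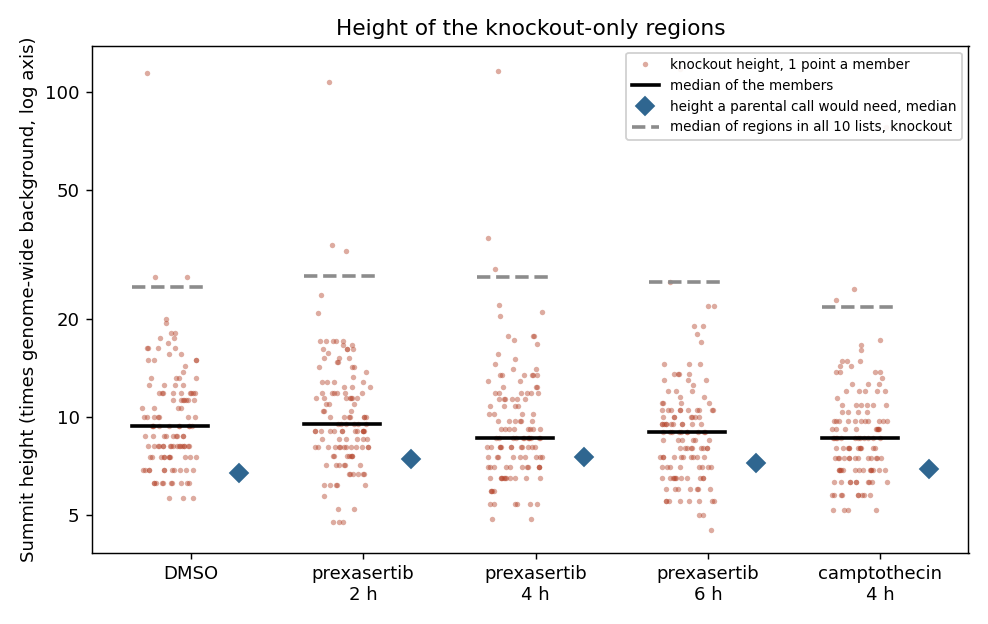
Points are the summit heights of the 128 knockout-only regions in each knockout library, on a log axis in multiples of the genome-wide background, with black lines at their medians. Medians lie between 8.62 and 9.52, below the dashed medians of the regions called in all 10 lists and above the diamonds, the median height at which the parental library of the same condition would have made a call.

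A missing parental peak sets an upper limit on the parental signal, which the lists themselves do not give. For each knockout-only region, the pileup that would have passed the p-value limit of the parental list of the same condition was computed, assuming the same local background relative to the genome-wide one. The median height needed for a parental call was 6.73 under DMSO, 7.45, 7.55 and 7.22 at 2, 4 and 6 h in prexasertib, and 6.92 in camptothecin. The knockout height exceeded this by a median factor of 1.32 under DMSO, 1.27, 1.13 and 1.24 at 2, 4 and 6 h in prexasertib, and 1.21 in camptothecin. In 72 of the 128 regions the factor was below 1 in at least 1 condition, so an equal parental height there could have gone uncalled. It reached 1.5 in all 5 conditions in 2 regions, and in 0 regions did it reach 2 throughout. The factor is a lower limit on the ratio of knockout to parental height under that assumption, and the lists give no upper limit.

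The share of knockout-only regions was highest among weak regions. The rule favours this in advance, since it asks for a missing call in every parental list, so the shares are a description only. Of the 1612 regions called in all 5 knockout lists whose lowest height was under 8, 82 were knockout-only (5.09%, interval 4.07% to 6.28%). The share was 1.61% (1.07% to 2.34%) at a lowest height of 8 to 10. At 10 to 12 it was 0.288% (0.0785% to 0.736%) and at 12 to 16 it was 0.532% (0.275% to 0.928%), so it did not fall at every step. It was 0.0592% at 16 to 24 and 0.0216% at 24 or more, where 1 of 4627 regions was knockout-only. Of the regions with a lowest height under 8, 24.5% were called in all 5 parental lists, against 98.9% at 24 or more. In all, 109 of the 128 (85.2%) had a lowest height under 10. In the parental line the 2 regions were among 1027 with a lowest height under 8 and among 1182 at 8 to 10, and no region stronger than that was parental-only.

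**Figure D3:**
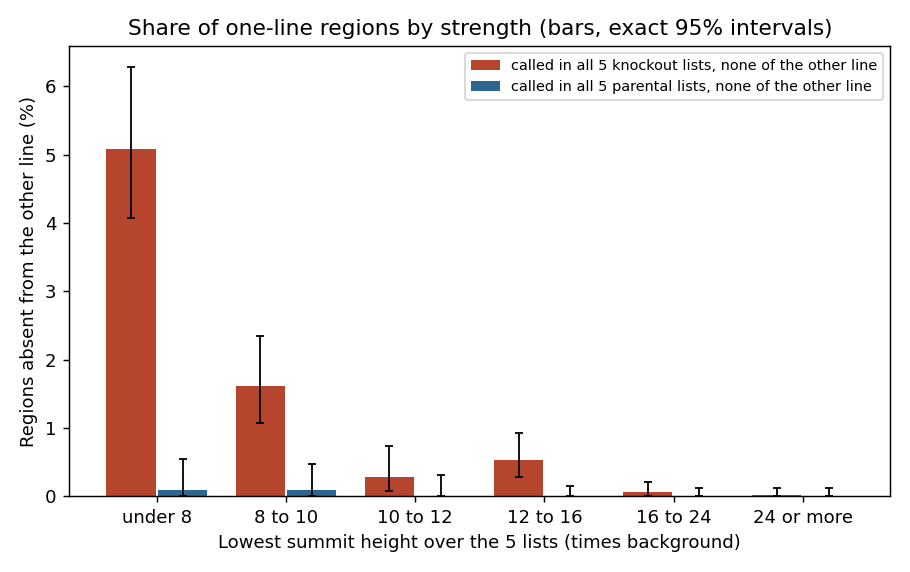
Bars give the percentage of regions called in all 5 lists of one line that had no peak in the other line, by lowest summit height over the 5 lists, with exact 95% intervals. Knockout regions run from 5.09% at a height under 8 to 0.0216% at 24 or more, and the parental bars stay under 0.1%.

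The strongest knockout-only region by its lowest height lay on chromosome 10 at 42542940 to 42543899. Its height was 114 under DMSO, 107, 116 and 118 at 2, 4 and 6 h in prexasertib, and 78.2 in camptothecin, with −log10 q between 23.1 and 71.4. This was an isolated value among the 128, where the second highest was 22.99. Its fold over the local background, however, was only 2.904 to 4.62, and the local background there was on average 25.3 times the genome-wide one.

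That region sat inside a block of very high signal in both lines. No regions were left out here for repeats or extreme signal. How uniquely reads map in this block was not examined, so its heights need not reflect accessibility. Within 200 kb lay 14 regions called in all 10 lists, with heights from 75.5 to 742 where they could be recovered. Their median height was 209 to 280 in the knockout libraries and 247 to 306 in the parental libraries. A region at 42545975 to 42546159, 2075 bp away, showed the opposite pattern in part. It was called in no knockout list and had heights of 91.3 after 4 h of prexasertib, 97.1 after 6 h and 102 after camptothecin in parental cells. Peaks called in one line alone thus alternated within this block.

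**Figure D4:**
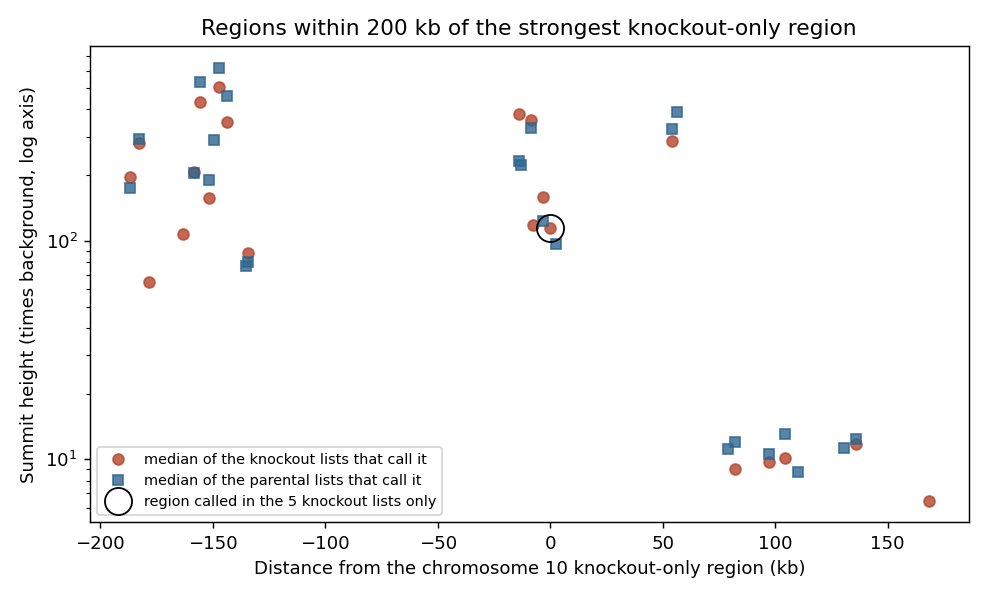
Points are regions within 200 kb of the chromosome 10 knockout-only region (circled), by distance in kb and by summit height on a log axis, as medians over the knockout lists (red) and parental lists (blue) that call them. Regions called in all 10 lists, with heights from 75.5 to 742, lie on either side of the circled region, a region with parental peaks alone lies next to it, and weak regions of both lines lie at the right.

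The second strongest region was on chromosome 7 at 100080949 to 100081710. Its heights were 27.0 under DMSO, 32.4, 28.6 and 26.1 at 2, 4 and 6 h in prexasertib, and 22.99 in camptothecin, and its −log10 q was 10.4 to 23.3. It is the other region with a −log10 q of at least 10 in all 5 lists, and its height was 1.58 to 1.99 times what a parental call would have needed. It lay 3727 bp from a region called in all 10 lists.

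Next came a region on chromosome 17 at 79481455 to 79482230, with heights between 22.1 and 35.7 and a −log10 q of 7.62 to 18.2. It was 547 bp from a region called in all 10 lists, and its local background was 8.03 times the genome-wide one. The other 7 of the 10 strongest had a lowest height between 12.5 and 15.2. They were on chromosome 20 at 31171019 to 31172271, chromosome 17 at 27893683 to 27894604, chromosome 7 at 5633773 to 5634779 and chromosome 3 at 45913403 to 45914072. The remaining ones were on chromosome 18 at 77155761 to 77156535, chromosome 11 at 60793572 to 60794116 and chromosome 12 at 133136043 to 133137326. All 10 lay within 3919 bp of a region with a parental peak, the nearest, on chromosome 12, at 100 bp. High local backgrounds, 3.61 times the genome-wide one or more, went with all 10.

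Ranking by height therefore picked regions beside other regions with called peaks. Over all 128, a parental peak lay within 1 kb of 10 regions, within 10 kb of 42 (32.8%) and at a median distance of 19150 bp. A region called in all 10 lists lay within 10 kb of 12.5% of the 128. That share was close to the 14.3% of regions with all 5 knockout lists and 1 to 4 parental lists. Among regions called in all 10 lists, 13.0% had another such region within 10 kb. Only 13 of the 128 (10.2%) had a mean local background of at least 3 times the genome-wide one, against 44.5% of the regions called in all 5 knockout lists.

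Among knockout-only regions more than 10 kb from any parental peak, the one with the highest lowest factor over the height needed was on chromosome 11 at 14379928 to 14380829, chosen after its values were seen. Its heights were 19.4 under DMSO, 14.8, 12.4 and 14.5 at 2, 4 and 6 h in prexasertib, and 16.7 in camptothecin. Its −log10 q was 20.1, 14.9, 9.90, 14.8 and 15.2 in the same order. It lay 55406 bp from the nearest parental peak, and its height was 1.497 to 2.89 times what a parental call would have needed. Similar values, also picked after they were seen, belonged to regions on chromosome 13 at 113343821 to 113344944, with factors of 1.49 to 2.00, on chromosome 6 at 158652850 to 158653893, with 1.45 to 1.93, and on chromosome 5 at 140855281 to 140855969, with 1.41 to 2.06.

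At the other end, the regions closest to the threshold were on chromosome 1 at 64449202 to 64449753, chromosome 2 at 102003578 to 102004286 and chromosome 18 at 24283242 to 24283803, with lowest −log10 q of 2.01, 2.02 and 2.02. The chromosome 1 region had heights of 7.52 under DMSO, 10.00, 5.40 and 4.51 at 2, 4 and 6 h in prexasertib, and 5.75 in camptothecin. Just outside the rule, the 38 regions that failed it through a peak in the parental DMSO list alone had a median of 6.55 for their mean −log10 q over the knockout lists and a median −log10 q of 4.95 in the parental DMSO list.

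The knockout-only regions were also narrow. The median width of the longest peak in a region was 386 bp under DMSO, 514, 390 and 404 bp at 2, 4 and 6 h in prexasertib, and 355 bp in camptothecin. The regions called in all 10 lists had 736, 840, 794, 820 and 713 bp in the same libraries. The width gap was smaller among regions of like strength. Among regions of a lowest height under 8, knockout-only regions had a median width of 390 bp and the others called in all 5 knockout lists 454 bp. At 8 to 10 it was 475 bp against 534 bp. Several summits in 1 region occurred in 6.25% to 19.5% of the knockout-only regions and in 26.1% to 30.7% of the regions called in all 10 lists. The position of the highest summit varied over the 5 lists by a median of 223 bp, and in 71 of the 128 by at most 250 bp.

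Of the 2 parental-only regions, the stronger was on chromosome 14 at 44272393 to 44273013. Its parental heights were 10.4 under DMSO, 12.9, 9.81 and 11.2 at 2, 4 and 6 h in prexasertib, and 13.1 in camptothecin. Its −log10 q was 7.02, 9.24, 5.09, 7.73 and 12.0, and its widths ran from 370 to 584 bp. The heights were 1.65 to 2.29 times what a knockout call would have needed, more in its weakest condition than for all but 1 of the 128 knockout-only regions. It was isolated, with the next region called in any knockout list 979291 bp away and no region called in all 10 lists within 1 Mb.

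The other parental-only region was on chromosome 7 at 145699760 to 145700200. Its heights were 5.51 under DMSO, 9.48, 9.05 and 7.87 at 2, 4 and 6 h in prexasertib, and 8.30 in camptothecin, so it was lowest in the untreated library, where its −log10 q was 2.13. In the same interval, 133384 bp further on at 145833585 to 145833969, lay a region called in the 4 treated parental lists and in no knockout list, with heights of 9.48, 9.05, 10.5 and 11.8. Between them, at 145812821 to 145813605, a region was called in all 10 lists, with heights of 20.1, 22.9, 21.1, 15.5 and 16.1 in knockout cells and 20.2, 22.3, 21.9, 24.9 and 22.1 in parental cells, from DMSO to camptothecin. Before centring, its heights were close between the lines under DMSO and at 2 and 4 h in prexasertib. They were lower in knockout cells at 6 h and in camptothecin, with 1 library each. All common regions shifted too, with a median log2 height, knockout minus parental, of 0.42, 0.38, -0.099, -0.55 and -0.64 from DMSO to camptothecin. Relative to these medians, this region lay at -0.43, -0.35, 0.044, -0.13 and 0.18 in the same order.

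Clustering was described by distance. Neighbouring regions at most 1 Mb apart were joined, and a cluster was 3 or more. There was no such cluster, 0 of 128 regions, with an exact interval of up to 2.84%. At the same distance, 6.58% of the 243 regions with 5 knockout lists and 1 parental list were in clusters, as were 1.27% of the 237 with 4 knockout lists and no parental list. Of the far denser regions called in all 10 lists it was 98.4%. All of these sets hold more regions than the 128, and a fixed distance joins more regions in a larger set. Only 5 pairs were found at this distance, and with gaps of up to 2 Mb there were 13 pairs and still no cluster. The median distance from one knockout-only region to the next was 8074580 bp. No 5 Mb window with at least 10 common regions held more than 2. The 2 parental-only regions were on different chromosomes.

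The closest pair lay on chromosome 8 between 8146604 and 8319458, a span of 172855 bp that also held 1 region called in all 10 lists. On chromosome 7 a pair spanned 44303261 to 44500594, with no other region of any list between them. Heights there were 15.7, 10.5, 8.64, 10.5 and 10.9 in the first region and 11.3, 16.2, 10.8, 12.0 and 8.62 in the second, from DMSO to camptothecin. The other pairs were on chromosome 3 between 45705935 and 45914072, on chromosome 7 between 5322499 and 5634779 and on chromosome 21 between 42692981 and 43299983. Except on chromosome 7 at 44303261 to 44500594, every span held at least 1 region called in all 10 lists.

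All 23 chromosomes held a knockout-only region. Per 1000 regions called in all 5 knockout lists there were 8.55 overall. The rate was 17.4 (9.30 to 29.6) on chromosome 7, which had 13, and 2.17 (0.263 to 7.83) on chromosome 19, which had 2 of 920. These were the 2 chromosomes whose interval left out the overall rate, among 23 intervals. The highest rate, 22.0 on chromosome 18, rested on 5 regions and had an interval of 7.19 to 50.7.

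**Figure D5:**
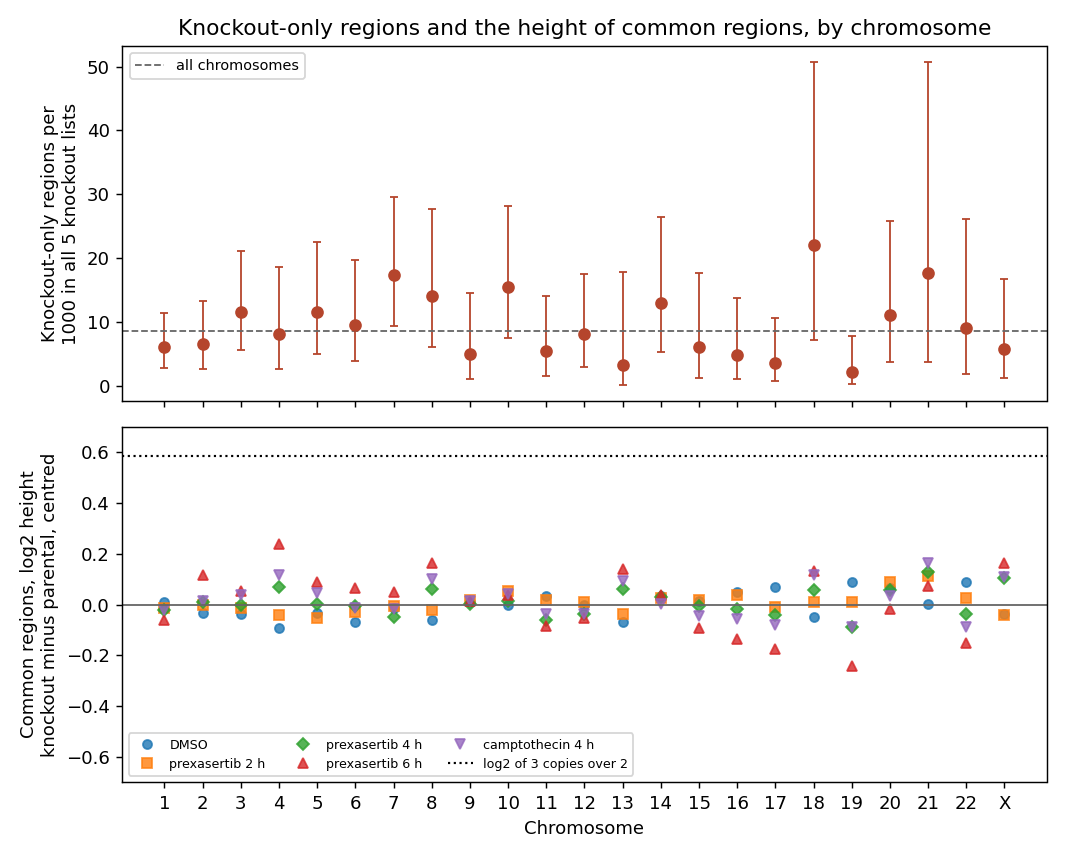
The upper panel gives knockout-only regions per 1000 regions called in all 5 knockout lists for each chromosome, with exact 95% intervals and the overall rate of 8.55 as a dashed line. The lower panel gives the median log2 height of regions called in all 10 lists, knockout minus parental and centred on the genome, for each condition. Every point lies between -0.24 and 0.24, inside the dotted line for 3 copies over 2 at 0.58, which assumes 2 starting copies.

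Copy number was addressed through regions the rule did not choose, those called in all 10 lists. Their heights near the 128 regions were compared with their heights everywhere. Within 1 Mb of the 128 regions lay 1367 common regions with a height in every library. Their median log2 height, knockout minus parental, was 0.44 under DMSO, 0.39, -0.083 and -0.56 at 2, 4 and 6 h in prexasertib, and -0.64 in camptothecin. Over all common regions the medians were 0.42, 0.38, -0.099, -0.55 and -0.64. The differences between both were 0.019, 0.013, 0.015, -0.012 and -0.006, positive in 3 of 5 conditions, with a mean of 0.006 on the log2 scale (exact sign-flip permutation test over the 5 conditions, two-sided p = 0.375). The smallest p that 5 pairs allow is 0.0625, so this test cannot pass 0.05, and its pairs are conditions of the same lines, not replicate cultures.

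Within 250 kb, 410 common regions differed from all common regions by 0.038, 0.033, 0.003, 0.028 and 0.037, positive in 5 of 5 conditions with a mean of 0.028 (exact sign-flip permutation test, two-sided p = 0.0625, the smallest possible). A step of 3 copies over 2 would be 0.58 on this scale. This assumes 2 starting copies, and the number of copies in these lines was not examined. With more starting copies, a gain or loss of 1 copy would be a smaller step. Of the 1367 common regions within 1 Mb, 11.6% were higher in the knockout line in all 5 conditions after centring, against 9.78% of all common regions, and 8.19% were lower in all 5, against 7.22%.

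Single regions varied more. For the 112 knockout-only regions with at least 5 common regions within 1 Mb, the median relative height of those neighbours was higher in the knockout line in all 5 conditions around 10 and lower in all 5 around 8. Its median over the 5 conditions ran from -0.18 to 0.53. The value reached 0.58 in at least 1 condition around 5 of the 112 and in all 5 conditions around 0. The 5 include the chromosome 10 region in the high-signal block, with 0.71 in camptothecin. The same counts around other regions are not given here, so these do not mark the knockout-only regions. The highest belonged to chromosome 3 at 18060160 to 18060828. The median relative log2 height of its 7 common neighbours lay between 0.37 and 1.03 by condition, higher in 5 of 5 conditions. Next was chromosome 1 at 64449202 to 64449753, where the median of 7 neighbours lay between 0.30 and 0.60 by condition. These are medians, and single neighbours are not given. Over 450 windows of 5 Mb with at least 10 common regions, none lay at or above a step of 3 over 2 copies in all 5 conditions, and none at or below the reverse step. Smaller steps were not counted, but some windows differed the same way in all 5 conditions. The window with the highest lowest value was on chromosome 2 at 10000001 to 15000000, between 0.22 and 0.32, with 0 knockout-only regions. In the other direction, a window on chromosome 6 at 25000001 to 30000000 lay between -0.44 and -0.11, with 1 knockout-only region. Copy number in these windows was not tested. Single conditions reached 0.58 in windows without a knockout-only region too, such as 0.79 at 6 h in prexasertib on chromosome X at 60000001 to 65000000. Windows that held a knockout-only region were higher in all 5 conditions in 8.74% of cases, and the others in 9.22%. For the parental-only regions only 1 common region lay within 1 Mb, the one on chromosome 7 described above. Its relative heights are given there, and 1 region does not allow a comparison over a set of neighbours.

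Across the drugs, the height of the knockout-only regions changed little with prexasertib and was lower in camptothecin, and they were wider at 2 h in prexasertib. Common regions were also lower in camptothecin and wider at 2 h in prexasertib. Relative to DMSO in the knockout line, their median log2 height change was -0.0074 at 2 h in prexasertib (95% interval -0.097 to 0.14), -0.090 at 4 h (-0.13 to 0.022), -0.059 at 6 h (-0.18 to 0.019) and -0.13 in camptothecin (-0.24 to -0.038). Common regions changed by 0.13, 0.11, 0.061 and -0.20 in the same libraries. With prexasertib the 2 medians had opposite signs, but every interval of the knockout-only regions there included 0, so their sign is not settled. With camptothecin both medians were negative. On the fold over the local background, the knockout-only regions changed by 0.054, -0.004, 0.040 and -0.062 and the common regions by 0.021, 0.066, 0.054 and -0.065. The median log2 width change of the knockout-only regions was 0.38 at 2 h in prexasertib (0.22 to 0.48), where 71.9% were wider than under DMSO. That of common regions was 0.16, with 75.2% wider. At 4 and 6 h and in camptothecin it was 0.040, 0.077 and -0.0056 for the knockout-only regions and 0.088, 0.13 and -0.024 for common regions. The rule required a call in every library, so these changes are not free of it, and 1 library per condition allows no test. In parental cells, common regions changed by a median log2 height of 0.15, 0.62 and 1.05 at 2, 4 and 6 h in prexasertib and 0.85 in camptothecin. The 2 parental-only regions averaged 0.54, 0.32, 0.31 and 0.46.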

How the data were processed

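The authors deposited 1 narrowPeak list per library. The submitters' processing notes name build hg19 and, among the tools, MACS2 2.1.2, BWA 0.7.17 and Picard 2.9.2, with no roles or settings. The sources used here do not say whether reads were shifted for the transposase. The deposited fold is the authors' enrichment of a summit over the local background, and the same summit's significance was deposited as −log10 of p and −log10 of q. The deposited score was not used. Lists were called per library, and no read counts were given.

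Pileup and local background were solved from fold and −log10 p, within 0.001, for 99.6% to 99.8% of summits, and the smallest background served as depth. Steps ran in Python 3.11.15 with scipy 1.17.1 and were tested on simulated data. Shares have exact (Clopper-Pearson) intervals at 95% confidence, and medians order-statistic intervals. The 10 highest regions by lowest height, those nearest the threshold and the closest pairs were named. The regions and the lists of settings were chosen with earlier results of these data known. No hg19 genome or annotation was used, so gene lists and motifs were not examined.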

Additional observations from a re-analysis of the deposited data

How the results depend on the processing

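The number of knockout-only regions was 125 with peaks merged across gaps of up to 500 bp and 134 with summits within 250 bp chained into sites, against 128. With the strictest p-value limit of the 10 lists applied to all, chosen after seeing the data, it was 127, which included 115 of the 128, and the parental-only number was 2. With pileups also thinned at random to a common background, it had a median of 58 (49 to 69 over 20 draws), a median of 44.5 of them among the 128, and 7 of the 128 were found in all 20 draws. With lists of equal length it was 46, which included 13 of the 128. With a −log10 q of at least 10 for presence and absence it was 55, which included 2 of the 128, and for presence only it was 2. The parental-only number was 8 with chained summits, 8 with equal lists, 4 after thinning and 0 at either stricter threshold. Without the parental 4 h prexasertib list alone, an alternative chosen after seeing the data, the numbers were 151 knockout-only and 6 parental-only. Leaving out 1 condition in both lines gave 158 to 335 knockout-only and 5 to 19 parental-only regions, with fewer lists required. Without the 4 h prexasertib libraries the numbers were 207 and 9. The sources used here do not say whether the parental peak list at that time was made from intact reads. The share of knockout-only regions in clusters then ran from 0 to 7.61%, with the highest value without the 6 h prexasertib libraries, while the parental share stayed at 0. Relative to regions called in all 5 knockout lists, the strength of knockout-only regions was 0.295 by −log10 q and 0.418 by height. The mean difference of common regions within 1 Mb ran from -0.0025 to 0.012 when a condition was left out, and reversed to -0.0025 without the 2 h and to -0.0007 without the 4 h prexasertib libraries. No fit with a replicate block was possible because there is 1 library per line and condition and the labels give no replicate numbers, and the lines were paired by condition. Depth limits each absence: the median height needed for a parental call at a knockout-only region was 6.73 to 7.55 by condition.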

Other observations

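On sequences outside the numbered chromosomes, X, Y and the mitochondrion, the lists merged into 776 regions, of which 173 were called in all 10. The same rule gave 1 knockout-only region, on the chromosome 6 haplotype sequence chr6_cox_hap2 at 3292295 to 3293154, and 0 parental-only regions.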
